A study of Homo sapiens with 4 samples.

Results

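The clustered histone genes were taken as the rows whose symbol starts with HIST1H, HIST2H, HIST3H or HIST4H. Of 89 such rows, 19 were left out as pseudogenes, by the letters of their names or by their type in GENCODE 44, and 70 of the 60623 genes in the files remained. HIST2H3PS2 left with the pseudogenes by its name, although its current symbol is H3-7, and it had 1 count in all. The large HIST1 cluster at 6p22 held 55 of them, over 2170.5 kb of chromosome 6 (GRCh38, chr6:25723397-27893891). The HIST2 cluster at 1q21 held 11 genes over 105.3 kb (chr1:149782689-149887965), the HIST3 cluster 3 genes further along chromosome 1 (chr1:228424845-228463104), and HIST4H4 stood alone on chromosome 12 (chr12:14767999-14771131). By type, 6 genes encode linker histone H1, 17 encode H2A, 18 H2B, 14 H3 and 15 H4.

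The cells were BICR10, a head and neck cancer cell line, transduced with lentivirus that carried either a control hairpin (shControl) or a hairpin against YEATS2 (shYEATS2) and then selected with puromycin in both groups. YEATS2 is a reader of histone acyl marks, and the study compared the transcriptomes of knockdown and control cells. Each group had 2 libraries of polyA RNA, read as pairs of 150 bp, with 47297970 and 39824898 counts on genes in shControl and 24072396 and 11334133 in shYEATS2. Both shYEATS2 libraries were the shallower ones, so depth and knockdown cannot be told apart by design, and nothing in the labels says that the libraries of a group came from separate cultures. The paper lists a pair of YEATS2 hairpins, and which of them each library carried is not given in the sources used here. YEATS2 itself measured 66.1 and 66.7 CPM under the control hairpin and 29.2 and 29.1 CPM after knockdown, where CPM is the count relative to the library total scaled by TMM, a log2 fold change of -1.19 ± 0.08 (SE, adjusted p = 3.6e-21).

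The squamous marker TP63 was near 0 in these cells, with a mean of 0.0331 ± 0.0468 CPM under the control hairpin and of 0.127 ± 0.18 CPM after knockdown (SD, n = 2 each). The 10 squamous markers summed to between 212 and 213 CPM in shControl and between 137 and 146 CPM in shYEATS2, most of it from SFN. Mean levels in shControl were 130 CPM for SFN, 56.6 for KRT6A, 15.7 for KRT5 and 5.73 for DSP. KRT14, KRT17, EPCAM, CDH1 and DSG3 were each at or below 1.87 CPM there. After knockdown KRT6A measured 1.79 CPM, KRT5 1.19 CPM and SFN 131 CPM. Of the 8 squamous markers tested, 5 were called lower, 1 higher (CDH1) and 2 had no call. The 7 fibroblast markers, among them COL1A1 and COL1A2, summed to between 7198 and 7289 CPM in shControl and between 2213 and 2350 CPM in shYEATS2, and all 7 were called lower. Low TP63 beside high collagen RNA goes against the markers of a squamous epithelial line, while the SFN, KRT6A and KRT5 RNA goes with them. The marker RNA thus leaves the labelled identity of the cells in doubt, and the identity was not tested further here. The paper states that its cell lines were authenticated by STR profiling. In bulk libraries such as these, fewer cells of a type and less RNA per cell cannot be told apart. The 4 endothelial markers summed to between 35.5 and 36.4 CPM in shControl and between 18.6 and 19.6 CPM in shYEATS2, nearly all from KDR. The 5 leukocyte markers stayed at or below 1.85 CPM in sum, with CD3E at 0. The part of these markers in the histone values was not tested.

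Clustered histone genes supply the bulk of the histones that package newly replicated DNA. They have no introns as a rule, lie in tight groups, and are transcribed mainly in S phase under NPAT, a coactivator that sits at the histone locus body. Their mRNAs usually end in a conserved stem-loop, bound by SLBP, in place of a poly(A) tail, and are degraded when replication stops. Some of the same genes also make longer polyadenylated transcripts, and libraries of polyA RNA hold chiefly such transcripts. The levels below are therefore those of histone RNA captured in polyA libraries, and which ends this RNA had was not tested. A change in the amount of histone mRNA cannot be told apart from a change in its polyadenylated share.

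The stem-loop was looked for in the 200 bases after each stop codon of the reference, since it is the element that sets these mRNAs apart from other mRNAs. It was found in all 68 genes with a stop codon annotated there under the identifier of the files, and in the other 2, HIST2H2AA3 and HIST2H2AA4, within the RefSeq span of the gene. Among the other protein-coding genes of chromosomes 1, 6 and 12, 3 of 4082 (0.0735%) held it, namely H2AC18 and H2AC19, which are the members HIST2H2AA3 and HIST2H2AA4 under identifiers of another release, and H3-7. The form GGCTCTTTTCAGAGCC occurred in 40 genes and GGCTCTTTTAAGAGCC in 10, all of types H1, H2A, H2B or H3. The forms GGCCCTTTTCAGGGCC (10 genes) and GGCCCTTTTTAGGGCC (4 genes) were found in H4 genes alone, and 6 further forms occurred once each. The element is printed below in capitals with 5 bases on either side for some of the genes described below, with the position of the capitals in GRCh38.
HIST1H1C (chr6:26055744-26055759, minus strand): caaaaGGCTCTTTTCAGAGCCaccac
HIST1H2BK (chr6:27146366-27146381, minus strand): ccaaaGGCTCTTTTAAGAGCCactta
HIST1H2AC (chr6:26124669-26124684, plus strand): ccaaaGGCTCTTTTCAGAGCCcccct
HIST1H4H (chr6:26285131-26285146, minus strand): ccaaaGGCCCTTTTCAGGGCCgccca
HIST2H2BE (chr1:149886188-149886203, minus strand): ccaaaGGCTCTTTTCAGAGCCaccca
HIST2H4A (chr1:149833032-149833047, plus strand): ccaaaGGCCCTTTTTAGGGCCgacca
HIST4H4 (chr12:14770724-14770739, minus strand): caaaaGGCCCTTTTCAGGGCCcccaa
The loop thus stood in genes that rose and in genes with no call alike, as the values below show.

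Promoters of 65 of the genes were at hand from RefSeq (GRCh38, 250 bases before to 50 after the start). The octamer ATTTGCAT, the site bound by POU2F1 (Oct-1) in H2B promoters, was sought on both strands together with CCAAT and TATAAA. The octamer was present in 77.8% of the H2B promoters and 68.8% of the H2A promoters, in 1 of 12 H3 promoters, and in none of the 6 H1 and 13 H4 promoters searched, against 1.77% of all 35116 promoters. CCAAT was present in 84.6% of the 65 promoters against 34.6% of all, and in 3 of 13 H4 promoters. TATAAA was present in 66.2% against 11.5%. H2A and H2B genes often share a promoter region in opposite directions, so a motif can be counted for both partners. The H3 promoter with the octamer was that of HIST1H3D, whose RefSeq window (chr6:26199244-26199543) was the same as that of HIST1H2AD. The windows below show the octamer in capitals for 3 H2B genes and for the H2A partner of HIST1H2BJ, whose window is the same stretch read on the other strand.
HIST1H2BK (chr6:27146889-27146912, minus strand): ttcaccttATTTGCATgagaggtc
HIST1H2BJ (chr6:27132827-27132850, minus strand): ttcaccttATTTGCATaagcgatt
HIST1H2AG (chr6:27132827-27132850, plus strand): aatcgcttATGCAAATaaggtgaa
HIST2H2BE (chr1:149886713-149886736, minus strand): gagccctaATTTGCATaaggtggt
A motif match describes the letters of the window and no binding was measured.

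Histone RNA was about 4 times as abundant after YEATS2 knockdown. Summed over all 70 genes, the level was 80.1 and 77.1 CPM in the shControl libraries and 315 and 303 CPM in the shYEATS2 libraries. This is a ratio of 3.93 between the group means, with both shYEATS2 libraries far above both shControl libraries. Of the 70 histone genes, 28 were higher in shYEATS2 and 0 were lower by the edgeR quasi-likelihood test (adjusted p under 0.05 over all 17058 genes tested), which called 46.2% of all tested genes, 22.6% higher and 23.6% lower. At least 2-fold besides, 26 members were higher, against 5.99% of all tested genes. No member was lower at an unadjusted p under 0.05 either, by edgeR, DESeq2 or limma-voom. DESeq2 called 19 members higher and 0 lower, against 13.9% of its 17244 genes higher and 16.5% lower. With library totals alone as the scaling, which moved the median of all tested genes from -0.01 to 0.13 on the log2 scale and the share of calls that were higher from 49% to 67.9%, 29 members were higher and 0 lower.

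Only 34 of the 70 genes had enough counts for the test, and 12 were at 0 in every library. Genes that reached the count filter through the shYEATS2 libraries had to differ between the groups, so the tested genes are no fair sample of the family. Of the 18 members above the filter level (0.313 CPM by library totals) in both shControl libraries, 17 were higher and HIST4H4 had no call, with a median log2 fold change of 1.85. The median over all tested genes was -0.01, with the 95th percentile at 1.21. Over all 70 genes, tested or not, both shYEATS2 libraries lay above both shControl libraries for 35 and below both for 2, HIST1H2AH and HIST1H4D, with 3, 2, 0, 0 and 8, 3, 2, 0 counts. For all tested genes these shares were 35.3% and 36.3%.

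**Figure D1:**
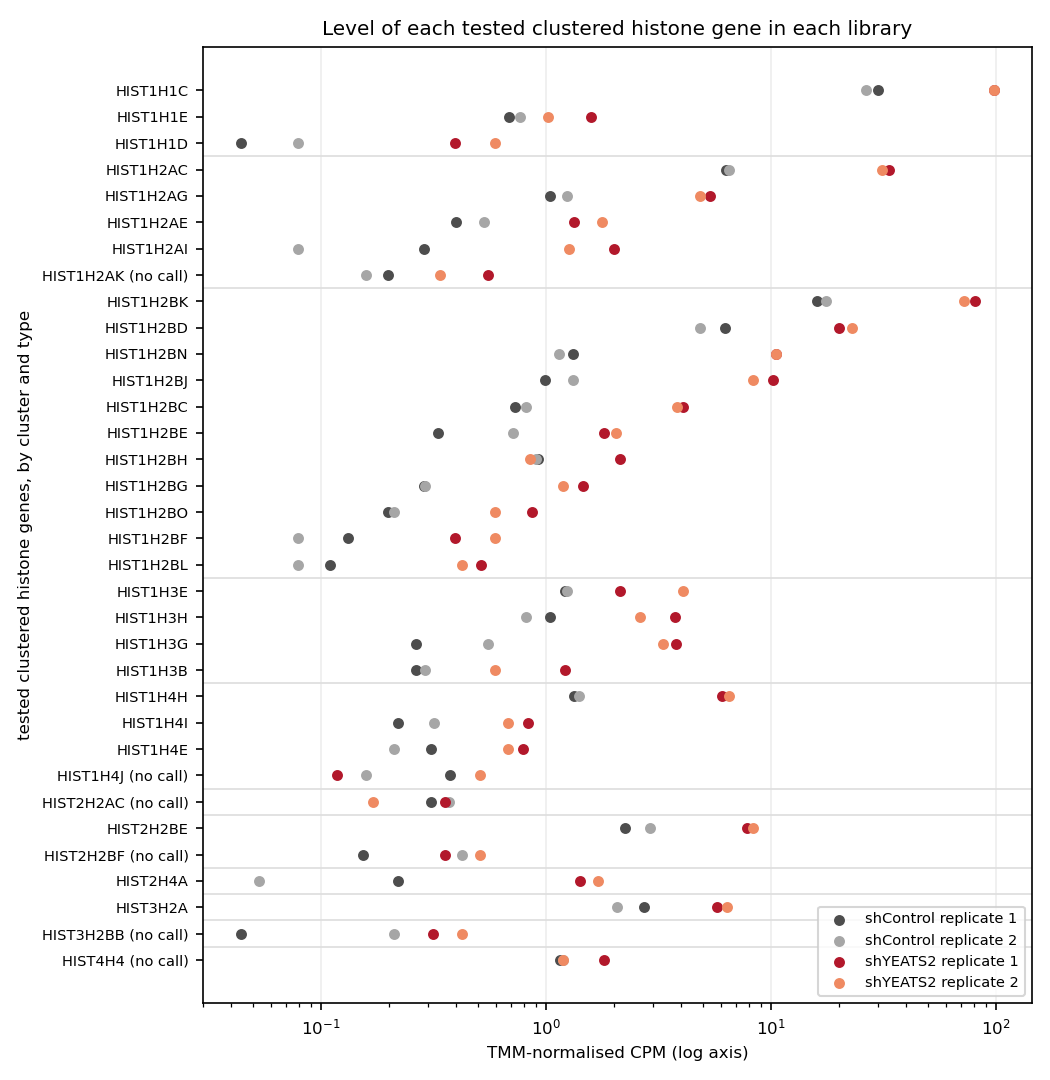
TMM-normalised CPM (log axis) of the 34 tested clustered histone genes, 1 point per library, ordered by cluster, type and mean level, with the genes that had no call marked. Both shYEATS2 points lie above both shControl points for 29 of the 34 genes, and HIST1H1C and HIST1H2BK lie farthest to the right.

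Levels are given for each library in the order shControl replicate 1, shControl replicate 2, shYEATS2 replicate 1, shYEATS2 replicate 2, in TMM-normalised CPM. The linker histone gene HIST1H1C (H1-2, ENSG00000187837) measured 29.9, 26.5, 98.2 and 98.3 CPM. It rose 3.48-fold, with a log2 fold change of 1.80 ± 0.07 (edgeR, adjusted p = 6.2e-32), where the ± of every log2 fold change is its standard error. The groups were far apart, and the shYEATS2 libraries differed by less than the shControl libraries. HIST1H1E (H1-4), which encodes a main H1 subtype of many somatic cells, measured 0.683, 0.767, 1.58 and 1.02 CPM. Its log2 fold change was 0.91 ± 0.37 (SE, adjusted p = 0.037), and this call rested on few counts. It was lost with DESeq2 (adjusted p = 0.31), without a filter (0.089), with the replicate number as a block (0.052), and without shControl replicate 1 (0.15), shControl replicate 2 (0.076) or shYEATS2 replicate 1, where the log2 fold change was 0.48 (adjusted p = 0.56). HIST1H1D (H1-3) went from 2 and 3 counts in shControl to 10 and 7 counts in shYEATS2, a log2 fold change of 2.87 ± 0.80 (SE). It was not above the filter level in both shControl libraries and was tested only with its shYEATS2 counts. All 3 tested H1 genes were thus called higher by edgeR, and DESeq2 called 1 of them. The H1 genes summed to 30.6, 27.4, 101 and 100 CPM, almost all of it from HIST1H1C.

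Among the H2A genes, HIST1H2AC (H2AC6, ENSG00000180573) had the most CPM, with 6.31, 6.54, 33.4 and 31.3 CPM. It rose 5.06-fold (log2 fold change 2.34 ± 0.11, adjusted p = 1.6e-29). HIST1H2AG (H2AC11), which encodes a canonical H2A, measured 1.04, 1.24, 5.37 and 4.84 CPM, and its log2 fold change was 2.18 ± 0.23 (SE). In both genes the libraries of a group lay close together and the groups did not overlap. HIST1H2AI (H2AC13) had 1 of the 3 largest rises, from 0.287 and 0.0794 CPM to 2.01 and 1.27 CPM, a log2 fold change of 3.14 ± 0.47 (SE). This gene was not above the filter level in both shControl libraries, so its place among the largest rises is not independent of the filter. It shares 52.9% of its 150-base windows with HIST1H2AJ, which was not tested. Reads from these windows could be lost, so this value is uncertain. HIST1H2AE also rose, and HIST1H2AK had no call (log2 fold change 1.38, adjusted p = 0.068), which leaves 4 of 5 tested HIST1 H2A genes called higher.

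H2B was the type with the most tested genes. Of these 14 genes, 12 were called higher (85.7%, near the 82.4% of all tested members). All 11 tested H2B genes of the 6p22 cluster were called higher by edgeR and 7 of them by DESeq2, with log2 fold changes from 0.84 to 3.08. HIST1H2BL, HIST1H2BG, HIST1H2BO and HIST1H2BF among them were not above the filter level in both shControl libraries. HIST1H2BK (H2BC12, ENSG00000197903) measured 16.1, 17.5, 80.7 and 72.2 CPM. It rose 4.59-fold (log2 fold change 2.20 ± 0.08, adjusted p = 2.5e-34). Per kilobase of annotated exon it was, with HIST1H1C, the highest of the family, at a mean of 33.9 CPM per kb in shControl and 154 in shYEATS2, where HIST1H1C had 38.5 and 134 CPM per kb. HIST1H2BD (H2BC5) measured 6.28, 4.82, 20 and 22.9 CPM, a log2 fold change of 1.93 ± 0.12 (SE). On the same scale per kilobase HIST1H2BD came next, with 6.45 CPM per kb in shControl and 24.9 in shYEATS2. The largest H2B rises, named here after their values were seen, were those of HIST1H2BN and HIST1H2BJ.
HIST1H2BJ (H2BC11) measured 0.992, 1.32, 10.2 and 8.32 CPM (log2 fold change 3.03 ± 0.20), and HIST1H2BN (H2BC15) measured 1.32, 1.14, 10.5 and 10.5 CPM (log2 fold change 3.08 ± 0.19). The weakest of the H2B calls was that of HIST1H2BH, whose libraries overlapped, at 0.926, 0.9, 2.13 and 0.848 CPM (log2 fold change 0.84, adjusted p = 0.038, and 0.38 with DESeq2).

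All 4 tested H3 genes of the 6p22 cluster were called higher, with log2 fold changes from 1.24 to 3.15. HIST1H3E (H3C6) measured 1.21, 1.24, 2.13 and 4.07 CPM, a log2 fold change of 1.24 ± 0.29 (SE, adjusted p = 0.00028). The shYEATS2 libraries differed widely here, and without shYEATS2 replicate 2 the log2 fold change was 0.79 and the call was lost (adjusted p = 0.052). HIST1H3H (H3C10) measured 1.04, 0.82, 3.75 and 2.63 CPM, a log2 fold change of 1.81 ± 0.28 (SE). HIST1H3G (H3C8), which like these encodes canonical H3, measured 0.265, 0.556, 3.79 and 3.31 CPM. It rose 8.89-fold (log2 fold change 3.15 ± 0.33, adjusted p = 1e-12). HIST1H3G was not above the filter level in both shControl libraries, so its place among the largest rises is not independent of the filter. HIST1H3G shares no read-length window with another member or a left-out pseudogene, and other genes were not searched. HIST1H3B, also not above that filter level, had no call with DESeq2 (adjusted p = 0.091).

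Of the H4 genes of the 6p22 cluster, 3 of 4 tested were called higher, and only HIST1H4H of these was above the filter level in both shControl libraries. HIST1H4H (H4C8) measured 1.34, 1.4, 6.08 and 6.53 CPM, a log2 fold change of 2.19 ± 0.21 (SE, adjusted p = 1e-13). HIST1H4I (H4C9) had 10 and 12 counts in shControl and 21 and 8 counts in shYEATS2, which are 0.22, 0.318, 0.829 and 0.679 CPM. Its log2 fold change was 1.52 ± 0.52 (SE, adjusted p = 0.013), and the call was lost with DESeq2 (adjusted p = 0.19) and without shControl replicate 1 (0.17), shControl replicate 2 (0.06) or shYEATS2 replicate 1 (0.24). HIST1H4J, which shares 88.8% of its windows with HIST1H4K, had 17, 6, 3 and 6 counts and no call (log2 fold change -0.11). Nearly all clustered H4 genes encode the same protein, HIST1H4G being an exception that was at 0, and the counted RNA of all 15 summed to 4.25, 3.92, 11.9 and 11.9 CPM.

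The HIST2 genes at 1q21 had fewer counts and were less even. HIST2H2BE (H2BC21, ENSG00000184678), the best captured of them, measured 2.25, 2.91, 7.86 and 8.32 CPM. It rose 3.13-fold (log2 fold change 1.65 ± 0.18, adjusted p = 3.5e-12) with groups well apart. HIST2H2AC (H2AC20), its divergent neighbour, measured 0.309, 0.37, 0.355 and 0.17 CPM, with a log2 fold change of -0.21 ± 0.64 (SE, adjusted p = 0.81). HIST2H2BF (H2BC18) measured 0.154, 0.423, 0.355 and 0.509 CPM, a log2 fold change of 0.54 ± 0.63 (SE) and no call. In both genes the groups overlapped and the standard errors were wide, and the difference from HIST2H2BE was not tested. HIST2H4A (H4C14) had the largest log2 fold change of the family, 3.38 with a standard error of 0.51, from 10 and 2 counts in shControl to 36 and 20 counts in shYEATS2. This gene was not above the filter level in both shControl libraries and was tested only with its shYEATS2 counts. Its place among the largest rises is therefore not independent of the filter. HIST2H4A shares 92.2% of its windows with the copy HIST2H4B, which had 1, 1, 3 and 0 counts. Reads that aligned to both copies were counted for no gene. The value rests on the reads that could be placed uniquely and is uncertain. No HIST2 H3 gene was tested.

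In the HIST3 cluster, HIST3H2A (H2AC25) measured 2.73, 2.06, 5.76 and 6.36 CPM and rose 2.48-fold (log2 fold change 1.31 ± 0.20, adjusted p = 6.5e-08). HIST3H2BB (H2BC26) had 2, 8, 8 and 5 counts and no call (log2 fold change 1.51 ± 0.76, adjusted p = 0.099), though limma-voom called it (adjusted p = 0.025). HIST4H4 (H4C16) on chromosome 12 measured 1.15, 1.19, 1.82 and 1.19 CPM, with a log2 fold change of 0.43 ± 0.32 (SE, adjusted p = 0.27). It had 52 and 45 counts in shControl and 46 and 14 in shYEATS2.

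By cluster, the HIST1 genes summed to 73, 69.8, 296 and 284 CPM (ratio 4.06) and the HIST2 genes to 3.2, 3.78, 10.8 and 11.1 CPM (ratio 3.14). The HIST3 genes summed to 2.78, 2.28, 6.08 and 6.79 CPM (ratio 2.55). The shYEATS2 libraries lay above the shControl libraries in each of these 3 sums, while those of HIST4H4 overlapped. Of the tested genes, 25 of 27 in HIST1, 2 of 4 in HIST2, 1 of 2 in HIST3 and 0 of 1 in HIST4 were called higher, with median log2 fold changes of 1.93 in HIST1 and 1.09 in HIST2. Only 15 of the tested HIST1 genes were above the filter level in both shControl libraries, and HIST2H4A was not. These call counts and medians therefore do not compare the clusters. By the sums, HIST1 made up 90.9% ± 0.364 of the CPM of the family in shControl and 93.9% ± 0.266 in shYEATS2, and HIST2 4.45% ± 0.649 and 3.55% ± 0.176 (SD, n = 2 each). The ranges of the groups did not overlap for either share, as was so for many of all tested genes (35.3% above and 36.3% below). The gap between these medians varied with the setting, and of the settings given here only thinned counts reversed their order. The HIST2 median rests on 4 genes, and was 1.64 against 1.79 in HIST1 with DESeq2, 2.4 against 2.22 with counts thinned to the smallest library, and 1.83 against 1.99 without shControl replicate 2. With the pseudogenes kept it was 0.54. The difference between clusters was not tested.

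**Figure D2:**
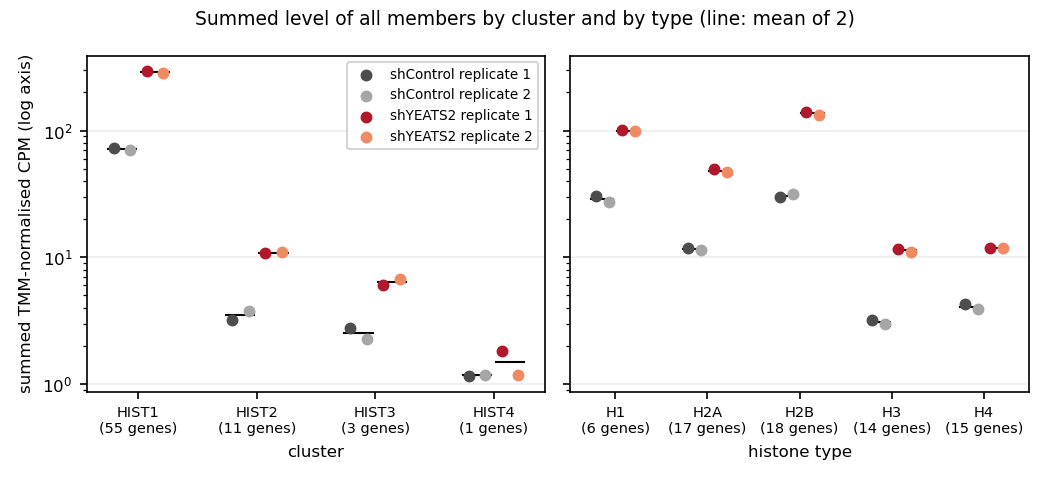
Summed TMM-normalised CPM (log axis) of all members in each library, by cluster on the left and by histone type on the right, with a line at the mean of each group of 2. All sums are higher in both shYEATS2 libraries except that of HIST4H4, and the H2B sum goes from a mean of 30.7 to 137 CPM.

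By type, the H2B genes had the largest ratio of summed CPM, 4.46, from 30 and 31.4 CPM to 141 and 133 CPM. The ratio was 4.14 for H2A, 3.68 for H3, 3.46 for H1 and 2.91 for H4. As shares of the family's CPM, H2B went from 39.1% ± 2.28 to 44.3% ± 0.674, H1 from 36.9% ± 1.95 to 32.5% ± 0.788 and H4 from 5.2% ± 0.164 to 3.85% ± 0.106 (SD, n = 2 each). H2A went from between 14.8% and 14.9% to between 15.5% and 15.7%, and H3 from 3.93% ± 0.123 to 3.68% ± 0.0565. The groups did not overlap in any of these 5 shares. The shares of a library add up to the whole family, so they are not separate results. With 2 libraries per group, 35.3% of all tested genes also lay above and 36.3% below without overlap. HIST1H1C and HIST1H2BK alone made up 57.2% ± 0.242 of the family's CPM in shControl and 56.5% ± 0.341 in shYEATS2, so the family total was carried by these genes in both groups. Without HIST1H1C the ratio of the HIST1 sum was 4.44.

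Along chromosome 6, most tested histone genes rose, while the other genes of the region were called in both directions. The cluster has a gap of 840 kb without a member. The 34 members before it lie within 562 kb and summed to 50.2, 46.3, 180 and 180 CPM (ratio 3.73), and all 16 tested were called higher. The 21 members after it lie within 768 kb and summed to 22.8, 23.6, 117 and 104 CPM (ratio 4.75), with 9 of 11 tested called higher. Only 15 of all tested HIST1 genes were above the filter level in both shControl libraries, so these call counts do not compare the parts. Between the outermost HIST1 genes lie 23 other tested genes, among them AL031777.3, which covers exons of HIST1H3D and HIST1H2AD. The 23 genes had a median log2 fold change of 0.11, and 6 (AL031777.3 included) were higher and 5 lower. This makes 47.8% called, near the 46.2% of all tested genes. Among these, HFE, an iron regulator that overlaps HIST1H2BC on the opposite strand, fell from 30.8 ± 1.65 to 22 ± 1.31 CPM (log2 fold change -0.47 ± 0.09), while HIST1H2BC rose with a log2 fold change of 2.36. ABT1, a regulator of basal transcription, fell with a log2 fold change of -0.45.

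The neighbours that rose most lay at different distances from histone genes. AL021807.1 (ENSG00000272468), annotated as a long noncoding RNA, lies 2676 bases from HIST1H2BJ on the same strand, beyond its 3′ end, and measured 0.265, 0.159, 2.05 and 2.46 CPM (log2 fold change 3.34 ± 0.43). HIST1H2BJ itself had a log2 fold change of 3.03. AL590062.1 (LARRPM), a long noncoding RNA 105587 bases from the nearest member, went from 0.745 ± 0.181 to 2.33 ± 0.662 CPM (log2 fold change 1.71). AL031777.3 (ENSG00000282988), singled out after its values were seen, covers the exons of HIST1H3D and HIST1H2AD on their own strand and had a log2 fold change of 2.60 ± 0.69 (SE). HIST1H3D and HIST1H2AD were at 0 in all 4 libraries. Reads on exons shared by several genes are given to no gene in the usual mode of HTSeq, so these zeros do not measure the expression of the pair.

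**Figure D3:**
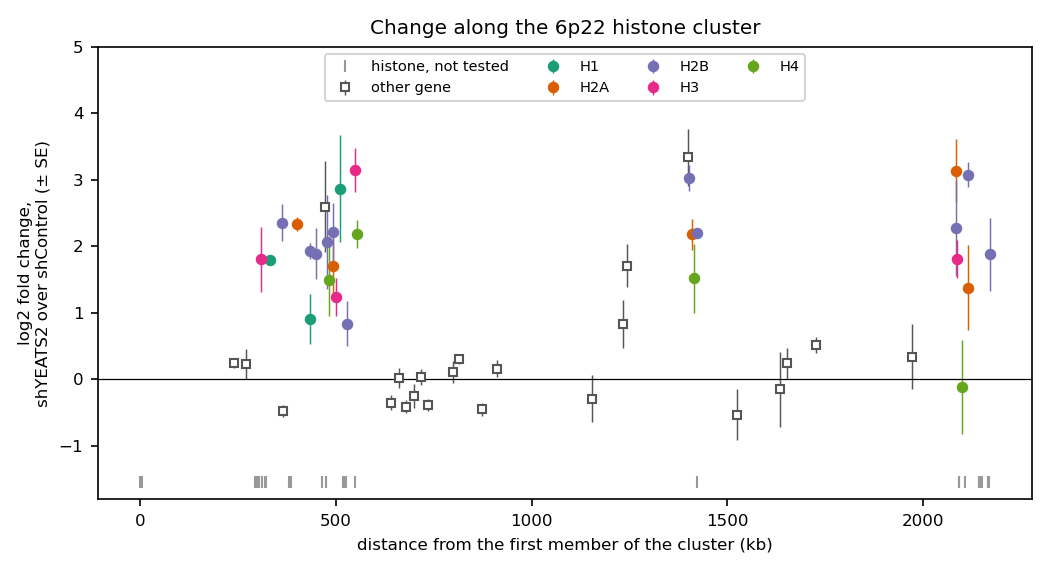
Log2 fold change with its standard error of tested genes along the 6p22 cluster, against the distance in kb from its first member. Filled circles are histone genes by type, open squares other genes, and ticks mark members that were not tested. The histone genes stand between 0.84 and 3.15 apart from HIST1H4J at -0.11, and the other genes between -0.53 and 0.83 apart from AL021807.1, AL590062.1 and AL031777.3.

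Histone H2A and H2B genes are often arranged head to head around a shared promoter region, which allows the partners to be compared. In 12 such pairs the starts lay 170 to 251 bases apart, and 1 further pair joined an H3 and an H2B gene. Both partners had enough counts for the test in 7 of the 13 pairs, and of these both were called higher in 4 and 1 of them in 3. In 4 pairs only 1 partner was tested, and it was called higher in each, with HIST1H2BO standing in 2 of these pairs. Of these partners, HIST1H2BF and HIST1H2BO were under the filter level in shControl and had no call with DESeq2 (adjusted p = 0.14 and 0.11). Of all tested members 82.4% were called higher, so the counts of pairs show nothing beyond the family. In the other 2 pairs neither partner was tested. The partners differed widely in level in some pairs. HIST1H2BK had a mean of 16.8 CPM in shControl and 76.4 CPM in shYEATS2, while HIST1H2AH, whose start lies 251 bases away, had 5 counts in all libraries together. HIST1H2BC and HIST1H2AC, in contrast, both rose, with log2 fold changes of 2.36 and 2.34. HIST1H2BJ and HIST1H2AG, which share the octamer window printed above, rose with log2 fold changes of 3.03 and 2.18. In the pair at 1q21, HIST2H2BE rose and HIST2H2AC had no call, and HIST2H2AC had 39 counts in all.

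For 17 of the genes GENCODE 44 annotates transcripts that run more than 100 bases past the stem-loop, and 51 had none. The genes with such transcripts summed to 26.1, 25.7, 110 and 111 CPM (ratio 4.25) and the others to 53.8, 51.4, 205 and 192 CPM (ratio 3.78). Of those tested, 12 of 15 with extended transcripts and 16 of 19 without were called higher, with median log2 fold changes of 1.89 and 1.81. DESeq2 called 12 and 7 of them. Most of the tested genes without an extension were under the filter level in shControl. These counts and medians therefore do not compare the classes. HIST1H1C and HIST1H2BK, the genes with the most CPM, had no annotated extension. Without this pair, the other 49 genes without an extension summed to 7.85, 7.44, 26.3 and 21.6 CPM (ratio 3.13). The summed level thus rose in both classes. Which ends the captured transcripts had was not tested, since the files hold counts per gene only.

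The 36 genes that were not tested summed to 2.01, 1.14, 3 and 2.29 CPM, little beside the family's total. The 12 at 0 in every library were HIST1H1A, HIST1H2AA, HIST1H2AD, HIST1H2BA, HIST1H2BB, HIST1H3D, HIST1H4F, HIST1H4G, HIST1H4L, HIST2H3A, HIST2H3C and HIST3H3. A count of 0 allows up to 3 counts, which is between 0.0661 and 0.254 CPM depending on the library and covers counting error only. Several of these, such as HIST1H2BA, HIST1H2AA and HIST3H3, are known as testis histones, while HIST2H3A and HIST2H3C are near-identical copies whose reads cannot be placed uniquely. The other 24 were HIST1H1B, HIST1H1T, HIST1H2AB, HIST1H2AH, HIST1H2AJ, HIST1H2AL, HIST1H2AM, HIST1H2BI, HIST1H2BM, HIST1H3A, HIST1H3C, HIST1H3F, HIST1H3I, HIST1H3J, HIST1H4A, HIST1H4B, HIST1H4C, HIST1H4D, HIST1H4K, HIST2H2AA3, HIST2H2AA4, HIST2H2AB, HIST2H3D and HIST2H4B, each with 0 to 11 counts per library. In all, 15 members shared a read-length window with another member or a left-out pseudogene, the only genes searched. Of the 55 that shared none, 29 were tested and 26 called higher.

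The genes that act on histone mRNA were called in both directions. Of 32 tested genes for transcription and 3′ end processing of histone mRNA, 5 were higher (15.6%, against 22.6% of all tested genes) and 13 lower (40.6%, against 23.6%), with a median log2 fold change of -0.13 (0.01 with library totals alone). CCNE2, a cyclin that activates CDK2 at the start of S phase, fell from 43.7 ± 0.817 to 18.9 ± 1.37 CPM (log2 fold change -1.23). SNRPD3, a core protein of small nuclear RNPs, had a log2 fold change of -0.73 and ZNF473, a zinc finger protein of the histone processing complex, one of 0.72. NPAT and SLBP, named after their values were seen, fell with log2 fold changes of -0.40 and -0.54, and SLBP went from 53.9 ± 0.0206 to 36.9 ± 1.36 CPM (SD, n = 2 each). Of 14 genes for decay and translation of histone mRNA, 3 were higher and 4 lower (21.4% and 28.6%, near the 22.6% and 23.6% of all tested genes), with a median of -0.01 (0.13 with library totals alone). XRN1, a 5′ exonuclease, had a log2 fold change of -0.74, LSM4, part of the ring that binds the degrading 3′ end, one of 0.51, and DXO, a decapping enzyme, one of 0.42.

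Genes of S phase and DNA replication, the phase in which clustered histone mRNA normally accumulates, went lower while histone RNA was higher. Of 45 tested, 34 were lower (75.6%, against 23.6% of all tested genes) and 4 higher, with a median log2 fold change of -0.41. MCM5 and MCM2, subunits of the replicative helicase, had log2 fold changes of -0.97 and -0.81, and RFC3, of the clamp loader, one of -0.85. Of 26 tested histone chaperones, 7 were higher and 9 lower (26.9% and 34.6%, against 22.6% and 23.6% of all tested genes), with a median of -0.11 (0.02 with library totals alone). TONSL, which reads newly made H4, fell with a log2 fold change of -0.95, and the H3 and H4 chaperone ASF1B with -0.52, while its paralogue ASF1A rose with 0.50.

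The histone variants outside the clusters, most of which are made outside S phase as well, were called in both directions. Of 9 tested, 2 were higher (22.2%, against 22.6% of all tested genes) and 3 lower (33.3%, against 23.6%), with a median log2 fold change of -0.04 (0.09 with library totals alone). H2AFZ (H2AZ1) measured 345, 326, 396 and 396 CPM (log2 fold change 0.24) and H3F3A (H3-3A) 96.3, 101, 83.2 and 83.8 CPM (log2 fold change -0.24), and both calls were lost without shControl replicate 2. That of H3F3A was also lost with library totals alone (adjusted p = 0.18) and with thinned counts (0.081). CENPA, the H3 variant of centromeres, rose most, from 10.4 ± 0.0084 to 21 ± 2.75 CPM (log2 fold change 0.99). MACROH2A2 (H2AFY2 in the files), a macroH2A variant under the level set for named genes and named after its values were seen, fell from 3.28 ± 0.19 to 1.58 ± 0.44 CPM (log2 fold change -0.97, adjusted p = 0.0007). Summed, the variants measured between 1666 and 1673 CPM in shControl and between 1665 and 1667 CPM in shYEATS2.

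**Figure D4:**
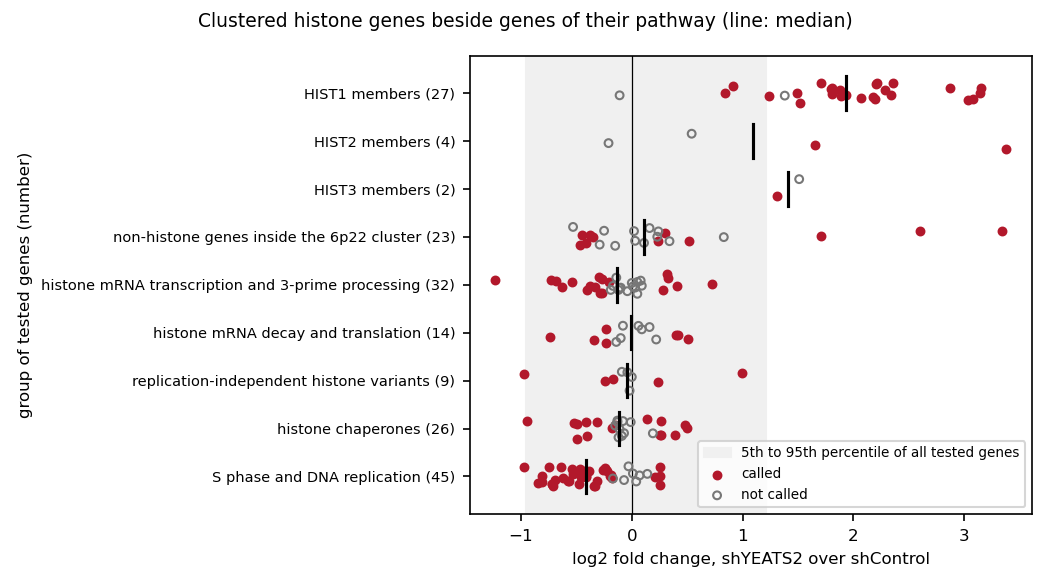
Log2 fold change of tested HIST1, HIST2 and HIST3 members beside non-histone genes inside the 6p22 cluster and lists of related genes, with the number of tested genes in brackets, called genes filled, and a line at each median. The genes drawn as non-histone include AL031777.3, which covers exons of HIST1H3D and HIST1H2AD. The band spans the 5th to 95th percentile (-0.956 to 1.21) of all tested genes, and most HIST1 members lie to the right of it while the other lists lie within it apart from at most 3 genes each.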

How the data were processed

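The authors prepared stranded mRNA libraries of polyA RNA, aligned the reads to GRCh38 with STAR and counted them per gene with HTSeq. The deposited values are raw counts, without normalization. The sources used here do not give the mode and strand setting of HTSeq or the annotation release. Reads from overlapping genes on opposite strands may therefore be mixed, and reads that aligned to several places (3.25% to 3.529% of the tallied pairs) were counted for no gene.

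Genes were tested with edgeR 4.0.16 (R 4.3.3): filterByExpr, TMM, a quasi-likelihood fit of all 4 libraries, Benjamini-Hochberg adjustment over 17058 genes and a threshold of 0.05. The common biological coefficient of variation was 4.95%. CPM values are counts relative to the TMM-scaled library total with the SD of 2 libraries after ± for levels and shares, and the standard error for log2 fold changes. DESeq2 1.42.0 and limma-voom (limma 3.58.1) were alternatives. The same replicate numbers did not pair the libraries (correlation of replicate differences -0.0184).

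Positions, types and exons came from GENCODE 44 (60295 identifiers matched, with 68 of the members) and promoters from RefSeq. Current symbols stand in brackets after those of the files. The members and gene lists were chosen with earlier results of these data known. Named members were the 2 highest of each cluster and type and the 3 largest rises, with the 3 largest called changes of each list at a mean of at least 5 CPM and the 2 largest called rises and falls of the 6p22 neighbours at a mean of at least 1 CPM. Other names in the text serve to account for pairs, overlaps, lost calls and untested members.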

Additional observations from a re-analysis of the deposited data

How the results depend on the processing

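Of the 70 members, between 19 and 29 were called higher and 0 lower under the scalings, filters, tests, thresholds and depths tried, and 19 to 25 with 1 library left out. The 3 choices of members that follow were made after seeing the data. Members past the filter level in both shControl libraries gave 17 called of 18, 29 were called with the pseudogenes kept, and 26 without members that share a read-length window. Among all genes, 5239 were called by DESeq2 and 1653 at 2-fold or more, against 7876. The replicate numbers did not pair the libraries, and a replicate block gave 26 called members and 8012 called genes, with a HIST1 median of 1.96.

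The median log2 fold change of the tested members (1.85) was 1.69 with DESeq2, 1.98 with library totals, 1.63 without a filter, 2.14 with counts thinned to the smallest library, and 1.73 to 1.91 with 1 library left out. That of HIST1 (1.93) was 1.79 with DESeq2, 2.18 with at least 10 counts in every library, 2.06 with totals, 1.98 with limma-voom, 1.76 without a filter, 2.22 thinned and 1.93 to 2.06 with 1 library left out. The HIST2 median (1.09) rests on few genes. It was 1.64 with DESeq2, 1.65 with at least 10 counts or with members past the filter level in shControl, 0.54 with pseudogenes kept, 2.4 thinned, and 0.97 to 1.83 with 1 library left out. The log2 ratio of the HIST1 sum (2.02) was 2.16 with totals and 2.15 without HIST1H1C, and that of the HIST2 sum (1.65) was 0.78 with pseudogenes kept.

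With library totals alone, the list medians moved to -0.27 for S phase, 0.02 for chaperones, 0.13 for decay, 0.01 for transcription and processing, 0.09 for variants and 0.25 for the 6p22 neighbours, so the direction of all but the S phase and neighbour lists depends on the scaling. Without a filter they were -0.17 for chaperones, -0.18 for transcription and processing, -0.08 for variants and -0.02 for neighbours. The decay median was 0 with upper quartiles, 0.09 thinned and -0.03 to 0.05 with 1 library left out. With 1 library left out, the transcription list ranged from -0.14 to -0.1, the variants from -0.08 to -0.05 and the neighbours from 0.11 to 0.28. Leaving out 1 library in turn, HIST2H2AC ranged from -0.99 to 0.07 (without shYEATS2 replicate 2) and HIST2H2BF from -0.05 (without shControl replicate 1) to 1.38. Apart from the alternative's own construction where fewer genes or libraries enter, the cause was not tested. Over the 39 named genes, 17 values lost their call under an alternative, 1 gained one, 2 changed direction and 474 kept direction and call. The 36 untested members had too few counts for any statement about a change.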

Other observations

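Of the 19 histone pseudogenes left out, 13 were at 0 in every library and 2 had enough counts for the test, both in the HIST2 cluster. HIST2H2BC (H2BC20P) had 336 and 279 counts in shControl and 288 and 115 in shYEATS2, which are 7.41, 7.38, 11.4 and 9.76 CPM. It was called higher by edgeR (log2 fold change 0.54 ± 0.13, SE, adjusted p = 0.0005). HIST2H2BD (H2BC19P) measured 4.39, 5.37, 4.42 and 6.7 CPM, so the groups overlapped, and it had no call (log2 fold change 0.12 ± 0.18, SE, adjusted p = 0.6). The 5 HIST2 pseudogenes summed to a mean of 12.3 ± 0.679 CPM under the control hairpin and of 16.2 ± 0.535 CPM after knockdown (SD, n = 2 each), a ratio of 1.32. The 11 HIST2 members summed to 3.49 ± 0.415 and 10.9 ± 0.24 CPM, a ratio of 3.14. In every library of both groups the left-out pseudogenes with a HIST2 symbol thus held more counts than the HIST2 members did. Some of these pseudogenes, such as HIST2H2BA, lie on chromosome 1 outside the span of the HIST2 members.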
